A study of Mus musculus with 8 samples.

Results

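The interferon regulatory factor (Irf) family was examined in RNA-seq libraries of primary murine cardiac fibroblasts, the cells that lay down and remodel the matrix of the heart. Members were taken by their symbols in the deposited table, and the 8 described are Irf1, Irf2, Irf3, Irf4, Irf5, Irf7, Irf8 and Irf9, among 22274 genes in all. Each of the 8 libraries came from cells given TGF-β, at 5 ng/ml for 24 h in the study's methods. Of these, 4 were labelled GFP (an empty virus expressing a green fluorescent protein) and 4 were labelled OEIRF7 (a virus meant to overexpress IRF7), and no library without TGF-β entered the comparison. The study's text names adenovirus, and its reagent list gives a CMV promoter driving tagged human IRF7 with EGFP, whereas the deposited description names an adeno-associated virus. The CMV promoter is active in many cell types, so the vector does not restrict the transgene to fibroblasts. Strain, sex and age of the donor animals are not given in the labels, nor is it said whether the 4 libraries of a group came from separate cultures, so the p-values measure only the spread between these libraries.

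IRF proteins are transcription factors that share a DNA-binding domain at the amino terminus and recognise repeats of the letters GAAA, as found in the interferon-stimulated response element (ISRE). Irf3 and Irf7 lie dormant in the cytoplasm until kinases such as Tbk1 phosphorylate them after viral nucleic acid or microbial products are sensed, whereupon they switch on interferon genes. Interferon then acts through its receptors on STAT proteins, which join Irf9 to form the complex ISGF3 and switch on interferon-stimulated genes, Irf7 itself among them in the classical feedback loop. Irf1 is an inducible activator downstream of interferon-γ and NF-κB, Irf2 commonly opposes it at the same sites, Irf5 drives inflammatory cytokine genes, and Irf4 and Irf8 belong mainly to cells of the immune system.

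The sequence upstream of 3 members is shown as examples of windows with and without the letters of known response elements. As described below, Irf7 was lower and Irf1 and Irf2 were higher in the libraries labelled OEIRF7. A link between letters and direction was not tested. Irf3 was lower and Irf5 higher with no match in their windows, and Irf8 held matches and did not pass. The Irf5 window held no base before the outermost annotated start of that gene. The bases lie before the outermost annotated start of each gene within the RefSeq promoter window of GRCm38.p6, are read with the gene, and carry in capitals the ISRE core GAAANNGAAA or the Stat element TTCNNNGAA (GAS). The windows are chr7:141266500-141266674 on the minus strand for Irf7, chr11:53769764-53770013 on the plus strand for Irf1 and chr8:46739495-46739731 on the plus strand for Irf2.
Irf7: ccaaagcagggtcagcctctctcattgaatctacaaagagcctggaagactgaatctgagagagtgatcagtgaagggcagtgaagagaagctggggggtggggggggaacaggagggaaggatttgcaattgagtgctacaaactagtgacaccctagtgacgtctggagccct
Irf1: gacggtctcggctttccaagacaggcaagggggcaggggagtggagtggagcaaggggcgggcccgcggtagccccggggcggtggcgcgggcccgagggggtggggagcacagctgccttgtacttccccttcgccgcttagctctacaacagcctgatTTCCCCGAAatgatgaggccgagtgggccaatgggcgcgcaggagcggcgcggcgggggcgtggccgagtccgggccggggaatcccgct
Irf2: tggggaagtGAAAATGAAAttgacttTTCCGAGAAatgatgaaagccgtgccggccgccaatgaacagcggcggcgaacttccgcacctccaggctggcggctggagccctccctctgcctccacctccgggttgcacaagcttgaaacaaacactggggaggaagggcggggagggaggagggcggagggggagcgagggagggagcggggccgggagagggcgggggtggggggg

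All 8 members had at least 1 promoter window among the RefSeq windows (11 windows of 300 bases in all, 250 before and 50 after a start). Both strands were searched for GAAANNGAAA, for TTCNNNGAA, a palindrome that is read on both strands at once, and for the NF-κB letters GGGNNTTTCC. Counted from the RefSeq start on which each window is built, which for Irf2 lies downstream of the outermost annotated start that ends the printed bases, Irf2 held the ISRE core at position -241, the GAS letters at -224 and the NF-κB letters at -17. Irf1 held GAS letters at -90, and Irf8 held them at -171 and -153. No match to the 3 patterns was found in these windows of Irf3, Irf4, Irf5, Irf7 or Irf9. The windows of Irf5 and Irf9 began downstream of the outermost annotated start. For these genes no base before that start was searched. Of 32851 promoter windows of the same length, 3.44% held the ISRE core, 8.30% the GAS letters and 1.63% the NF-κB letters. These are matches of letters, not measured binding sites.

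Mouse Irf7 was far lower in the libraries labelled OEIRF7, Irf3 was lower to a smaller extent, and Irf5, Irf1 and Irf2 were higher. Irf8 and Irf9 did not pass the test, and Irf4 was too scarce to be tested. Of the 7 members tested, 3 were higher and 2 lower at an adjusted p under 0.05 by edgeR's quasi-likelihood test, and the same number, 5, had CPM (counts scaled to a common library size after TMM) that did not overlap between the groups. The background was high: of 13533 tested genes 58.9% passed (29.0% higher and 29.9% lower) and 53.8% had groups that did not overlap, so the members' share is near that of genes at large. Both an adjusted p under 0.05 in edgeR and a log2 fold change past 1 in either direction were met by 8.56% of tested genes and by 1 member, Irf7. The median log2 fold change was 0.07 over the 7 members and 0.00 over all tested genes. Library totals ran from 24454801 to 28658826 counts.

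**Figure D1:**
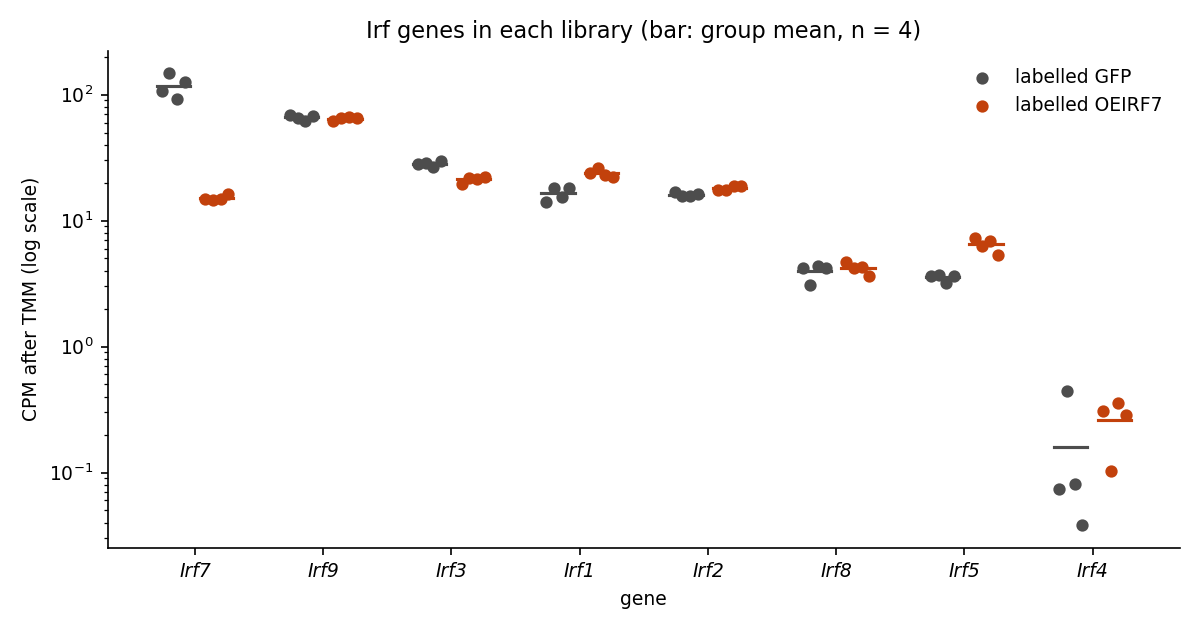
CPM of the 8 Irf genes (x axis) in each library on a log scale (y axis), grey for the 4 libraries labelled GFP and orange for the 4 labelled OEIRF7, with a bar at each group mean. Irf7 drops from a mean of 118 to 15.2 CPM, while the means of Irf9 are 66.0 and 64.3 CPM and Irf4 lies below 1.

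The targeted gene was examined first. Irf7 lies at chr7:141262706-141266481 on the minus strand (GRCm38) and held 2861, 3680, 2272 and 3291 counts in GFP replicates 1 to 4, against 385, 421, 380 and 404 in OEIRF7 replicates 1 to 4. In CPM these were 107, 147, 92.0 and 126, against 14.9, 14.5, 14.9 and 16.4. Every library labelled OEIRF7 thus lay far below every library labelled GFP. The difference was a log2 fold change of -2.96 (SE 0.12, 95% interval -3.22 to -2.70, edgeR adjusted p = 7.7e-11), a 7.77-fold lower mean CPM, and the gene ranked 72nd by size of change among the 13533. Permuting the labels over every assignment of the 8 libraries (exact, two-sided, on log2 CPM) gave p = 0.029, the smallest that 4 against 4 allows. The table counts reads on mouse genes, and whether reads from a transgene, human or mouse, entered the Irf7 count was not tested. A human transgene need not raise the mouse count and a mouse transgene could, and neither was tested. An exchange of the labels, which would turn the sign of every difference given here, was not tested, so the groups are named by their labels throughout.

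The libraries labelled GFP also varied more among themselves in Irf7 than in most genes. The SD of log2 CPM was 0.29 in this group, larger than that of 99.4% of genes of similar level, and 0.08 in the libraries labelled OEIRF7, larger than that of 32.5%. Replicates 2 and 4 were the high libraries in the first group, and no library of the second group stood apart.

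Irf3, the constitutively made sensor-activated partner of Irf7 (chr7:44997648-45002848, plus strand), fell in the libraries labelled OEIRF7. Its CPM were 28.1, 28.6, 26.7 and 29.9 in GFP replicates 1 to 4 and 19.5, 21.6, 21.3 and 22.3 in OEIRF7 replicates 1 to 4. The groups did not overlap, and the log2 fold change was -0.42 (SE 0.06, 95% interval -0.54 to -0.29, edgeR adjusted p = 2.3e-05). Cufflinks FPKM, which also scale for transcript length, gave a smaller drop, from 16.5 ± 0.532 to 13.6 ± 0.697 (SD, n = 4), a ratio of 0.827 against 0.748 in CPM. Irf3 shares 1065 bases with Bcl2l12, a gene of the opposite strand that was also lower (3.13 ± 0.680 against 2.18 ± 0.282 CPM, SD and n as before, log2 fold change -0.52, edgeR adjusted p = 0.023). The call of Bcl2l12 was lost without GFP replicate 1 or OEIRF7 replicate 3 (edgeR adjusted p of 0.093 and 0.059). Since the strand setting of the counting is not stated in the sources used here, reads from the shared stretch cannot be told apart.

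Irf5, an activator of inflammatory cytokine genes (chr6:29526625-29541871, plus strand), rose most among the members. It had 3.62, 3.73, 3.20 and 3.62 CPM in GFP replicates 1 to 4 and 7.33, 6.24, 6.91 and 5.35 CPM in OEIRF7 replicates 1 to 4. The lowest library labelled OEIRF7 lay above the highest labelled GFP, and the log2 fold change was 0.86 (SE 0.12, 95% interval 0.60 to 1.13, edgeR adjusted p = 2.5e-05). These values rested on 79 to 97 counts per library in the first group and 132 to 189 in the second. The gene overlaps Tnpo3 on the opposite strand by 1045 bases, and Tnpo3, an importin, was higher by 0.15 (log2, edgeR adjusted p = 0.0032). Tnpo3 was far more abundant than Irf5, at 95.9 ± 4.0 against 106 ± 1.9 CPM. As for Irf3, reads from the shared stretch cannot be told apart, and their part in the Irf5 count was not tested.

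Irf1, the inducible activator (chr11:53770014-53778374, plus strand), was likewise higher in the libraries labelled OEIRF7. Its CPM were 14.1, 18.1, 15.4 and 18.1 in GFP replicates 1 to 4, against 24.03, 26.0, 23.0 and 22.1 in OEIRF7 replicates 1 to 4. No library of one group reached the other, and the log2 fold change was 0.54 (SE 0.08, 95% interval 0.36 to 0.72, edgeR adjusted p = 6.6e-05). As with Irf7, GFP replicates 2 and 4 were the high libraries of their group.

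Irf2, the counterpart of Irf1 (chr8:46739732-46847458, plus strand), differed by little. It had 16.9, 15.5, 15.6 and 16.2 CPM in GFP replicates 1 to 4 and 17.5, 17.4, 18.8 and 18.7 CPM in OEIRF7 replicates 1 to 4. The groups were close but did not overlap in CPM, although they did in FPKM, and the log2 fold change was 0.17 (SE 0.06, 95% interval 0.04 to 0.30, edgeR adjusted p = 0.026). The call was lost in some alternatives. Without GFP replicate 2, GFP replicate 3, OEIRF7 replicate 3 or OEIRF7 replicate 4 the log2 fold change was 0.15, 0.16, 0.15 and 0.15, with edgeR adjusted p of 0.061, 0.062, 0.067 and 0.065, and DESeq2 gave 0.17 with an adjusted p of 0.065. The ratio of Irf1 to Irf2 in FPKM ranged from 1.07 to 1.49 in the libraries labelled GFP and from 1.28 to 1.67 in those labelled OEIRF7, which overlap.

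Irf9, the DNA-binding subunit of ISGF3 (chr14:55603571-55610030, plus strand), did not pass the test. Its CPM were 69.5, 64.8, 61.8 and 68.1 in GFP replicates 1 to 4 and 61.2, 65.4, 66.1 and 64.6 in OEIRF7 replicates 1 to 4. The groups overlapped, with a log2 fold change of -0.04 and a narrow 95% interval of -0.13 to 0.06 (SE 0.04, edgeR adjusted p = 0.48). Irf9 shares 123 bases with Rnf31, a subunit of a ubiquitin ligase complex on the same strand, whose log2 fold change was 0.08 (edgeR adjusted p = 0.29).

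Irf8, a factor of macrophages and dendritic cells (chr8:120736358-120756694, plus strand), was scarce and also did not pass. It had 4.22, 3.08, 4.38 and 4.23 CPM in GFP replicates 1 to 4, against 4.65, 4.17, 4.24 and 3.65 in OEIRF7 replicates 1 to 4. GFP replicate 2 was the low library, and the groups overlapped (log2 fold change 0.07, SE 0.14, 95% interval -0.22 to 0.37, edgeR adjusted p = 0.68). Without GFP replicate 2 the sign turned, at -0.03 with an edgeR adjusted p of 0.84.

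Irf4, the lymphoid and plasma cell factor (chr13:30749226-30766976, plus strand), had 2, 11, 2 and 1 counts in GFP replicates 1 to 4 and 8, 3, 9 and 7 in OEIRF7 replicates 1 to 4, and was left out by the low-count filter. Tested under looser filters it did not pass either, with adjusted p of 0.45 in edgeR with at least 1 count and 0.50 in DESeq2, so no difference was detectable at this depth.

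**Figure D2:**
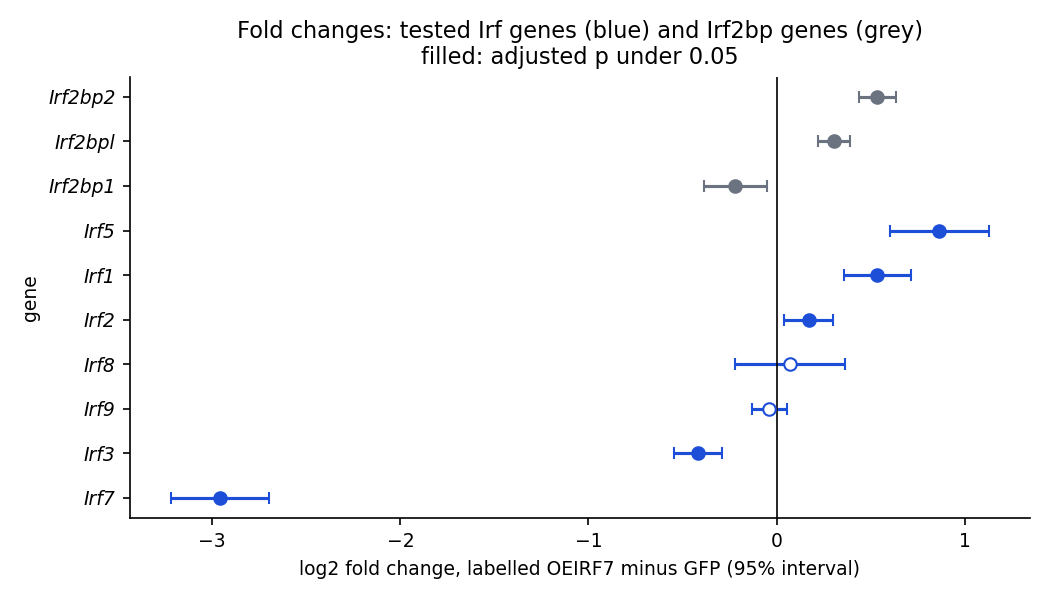
Log2 fold change (x axis) with its 95% interval for the 7 tested Irf genes (blue) and the 3 Irf2bp genes (grey), libraries labelled OEIRF7 minus GFP, with filled points for an adjusted p under 0.05. Irf7 stands at -2.96, far from the other members, which lie between -0.42 and 0.86, and the intervals of Irf8 and Irf9 cross 0.

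Compared per length in FPKM, the order of the members changed between the groups. In the libraries labelled GFP, Irf7 led with 63.4 ± 12.2 FPKM (SD, n = 4, and so below), followed by Irf9 with 26.3 ± 1.35, Irf3 with 16.5 ± 0.532, Irf1 with 9.35 ± 1.63 and Irf2 with 7.66 ± 0.730. Irf5 at 1.72 ± 0.311 and Irf8 at 1.38 ± 0.208 came next, and Irf4 was last at 0.04 ± 0.037. The ranges of Irf1 and Irf2 overlapped, as did those of Irf5 and Irf8.

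In the libraries labelled OEIRF7 the first place went to Irf9 with 26.0 ± 0.751 FPKM, ahead of Irf3 with 13.6 ± 0.697, Irf1 with 13.0 ± 1.05, Irf2 with 9.38 ± 0.616 and Irf7 with 8.71 ± 0.865. Irf5 with 3.24 ± 0.320 and Irf8 with 1.49 ± 0.131 kept their places above Irf4. Here the ranges of Irf3 and Irf1 overlapped, as did those of Irf2 and Irf7, while Irf5 lay clear of Irf8.

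The summed FPKM of the 8 genes was 120, 144, 109 and 133 in GFP replicates 1 to 4 and 74.7, 75.8, 74.6 and 77.3 in OEIRF7 replicates 1 to 4, so the groups were well apart. Irf7 made up 49.9% ± 3.69 (SD, n = 4) of the sum in the first group and 11.5% ± 1.04 in the second. Without Irf7 the sums were 62.9 ± 3.25 and 66.9 ± 1.07 FPKM and their ranges overlapped, from 58.8 to 66.0 against 65.9 to 68.1. Irf9 made up 20.98% ± 2.23 and 34.5% ± 0.961 of the sum at nearly equal FPKM. The ratio of Irf7 to Irf3 went from 3.84 ± 0.677 to 0.640 ± 0.0733.

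**Figure D3:**
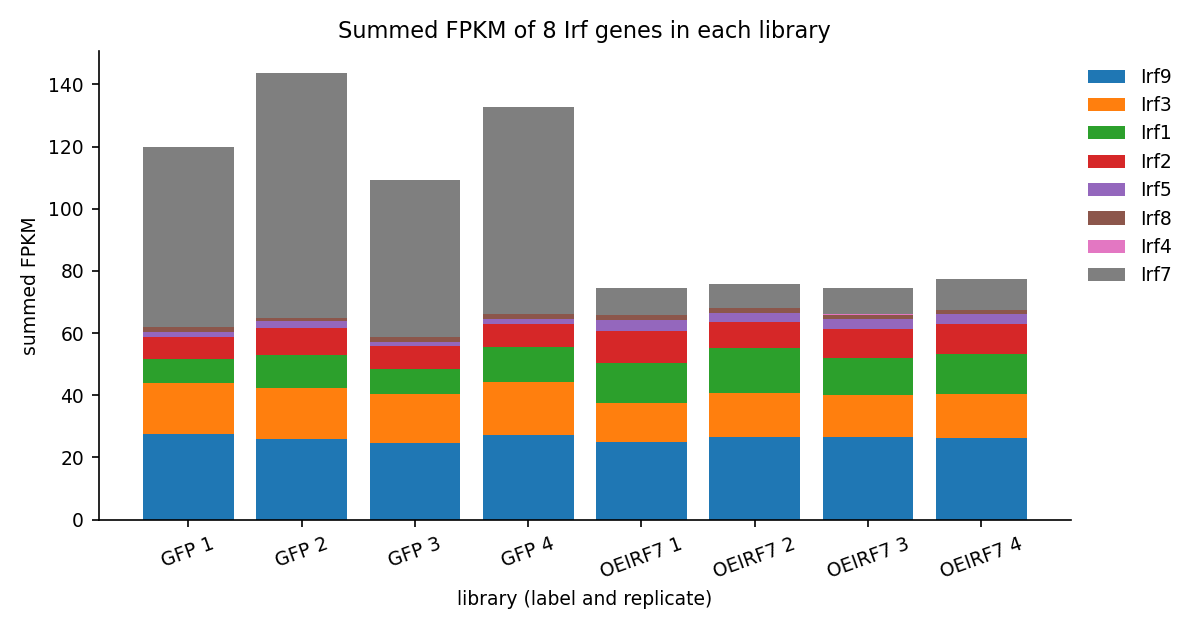
Summed FPKM (y axis) of the 8 Irf genes in each library (x axis), with the share of each gene stacked by colour. The Irf7 segment takes 49.9% of the bar on average in the libraries labelled GFP and 11.5% in those labelled OEIRF7, while the rest of the bar, from 58.8 to 68.1 FPKM, changes little.

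Irf5 and Irf8 are abundant in leukocytes, so markers of other cell types were counted beside them. Fibroblast markers were strong in all libraries (summed CPM 13460 to 14180 labelled GFP, 11856 to 12453 labelled OEIRF7). By edgeR 1 of 10 was higher, Pdgfra (log2 fold change 0.25), and 6 were lower. Among the lower were Tcf21, a factor of resident fibroblasts (log2 fold change -1.33, edgeR adjusted p = 2e-08), Postn (periostin, -0.38) and the collagen gene Col3a1 (-0.53). Col1a2 (-0.05), Dcn (-0.02) and Thy1 (-0.08) did not pass. The 15 markers of macrophages and monocytes were all detected, summed to 351 to 408 CPM in the first group and 426 to 480 in the second, and 7 were higher and 1 lower. The share called was 70% of the fibroblast list (10% higher, 60% lower) and 53.3% of this list (46.7% higher, 6.67% lower). Over all tested genes it was 58.9% (29.0% higher, 29.9% lower). The defining markers did not move as one. Itgam (CD11b) was higher, at 14.1 ± 0.70 against 29.7 ± 1.4 CPM, as was Mrc1, at 5.59 ± 0.54 against 11.6 ± 1.4 CPM. Adgre1 (F4/80) was higher too, at 15.4 ± 1.8 against 20.8 ± 1.4 CPM, though its call was lost with limma on FPKM (adjusted p of 0.13 to 0.19). Cx3cr1, the fractalkine receptor, was the lower one and changed most, at 2.54 ± 0.35 against 0.691 ± 0.17 CPM (log2 fold change -1.86, edgeR adjusted p = 4.7e-06). The call of Cd68 was lost without GFP replicate 2 or 3 or OEIRF7 replicate 2 or 4 (edgeR adjusted p of 0.075, 0.084, 0.054 and 0.099), and that of Tyrobp without GFP replicate 3 or 4 or OEIRF7 replicate 1 or 4 (0.15, 0.14, 0.14 and 0.10). Ptprc (CD45) did not pass, at 5.27 ± 0.90 against 4.96 ± 0.76 CPM, nor did Csf1r, at 23.1 ± 2.7 against 24.1 ± 1.2 CPM. Dendritic cell markers summed to 9.52 to 11.2 and 13.1 to 16.5 CPM with Flt3 at 0 in all libraries, and those of B and T lymphocytes to 0.448 to 0.972 and 0.930 to 1.86 CPM with Cd3d, Cd3e, Cd3g and Cd8a at 0. The part of these cells in the Irf values was not tested, and in such bulk samples fewer cells of a type and less RNA per cell cannot be told apart.

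The sums of the remaining marker lists were 229 to 244 against 235 to 264 CPM for endothelial genes, 9.99 to 13.7 against 7.50 to 9.73 CPM for cardiomyocyte genes, 68.9 to 76.0 against 79.0 to 98.8 CPM for mural genes and 145 to 154 against 89.5 to 93.8 CPM for epicardial and mesothelial genes, labelled GFP against OEIRF7. The sums overlapped between the groups for the endothelial list and not for the other lists of this paragraph. By edgeR 66.7% of the 9 tested endothelial genes were called (55.6% higher, 11.1% lower). The share was 80% of 5 mural genes (40% higher, 40% lower) and 60% of 5 epicardial and mesothelial genes (20% higher, 40% lower). Over all tested genes 58.9% were called (29.0% higher, 29.9% lower), and the CPM of 53.8% did not overlap. A sum follows its most abundant genes and does not speak for a list as a whole. Of 9 cardiomyocyte genes 8 averaged below 1 CPM, and the sum was almost all Tnnt2 (11.3 ± 1.6 against 7.78 ± 0.83 CPM). Among mural genes Cspg4 (22.4 ± 1.8 against 63.3 ± 7.2 CPM) and Rgs5 (log2 fold change 0.73) were higher by edgeR. Notch3 (41.4 ± 2.6 against 13.6 ± 2.4 CPM) and Myh11 (log2 fold change -0.98) were lower. In the epicardial and mesothelial list Upk3b (log2 fold change -1.32) and Lrrn4 (-0.70) were lower, Msln (0.19) was higher, and Upk1b and Wt1 did not pass. The call of Msln was lost in 11 of 17 alternatives.

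Of 18 tested kinases, adaptors and sensors that act on Irf3 and Irf7, 6 were higher and 4 lower, with a median log2 fold change of 0.04. That is 55.6% called, near the 58.9% of all tested genes, and the shares called in the 5 lists that follow and could be tested, in their order, were 62.5%, 64.3%, 71.4%, 63.3% and 78.3%. The number lower was 2 with limma on FPKM without a filter, where Tlr3 did not pass (adjusted p = 0.076). Irak1, a kinase of the Toll-like receptor pathway that phosphorylates Irf7, fell by 1.37 on the log2 scale (96.6 ± 4.0 to 37.4 ± 1.2 CPM, edgeR adjusted p = 6.7e-12). Ikbke, a kinase closely related to Tbk1, was lower by edgeR (log2 fold change -0.45), and so was the double-stranded RNA receptor Tlr3 (-0.23), whereas Tbk1 itself did not pass (-0.03, edgeR adjusted p = 0.49). The lipopolysaccharide receptor Tlr4 (0.51), its adaptor Myd88 (0.43) and the adaptor Traf3 (0.36) were higher.

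Interferon receptors and the JAK-STAT partners of Irf9 gave 8 higher and 2 lower of 16 tested, with a median log2 fold change of 0.11. As shares this was 50% higher and 12.5% lower, against 29.0% and 29.9% of all tested genes. Stat3, a signal transducer of cytokine receptors, fell (log2 fold change -0.18, edgeR adjusted p = 0.00019). Stat2, a subunit of ISGF3 beside Irf9, did not pass, at 207 ± 17 against 201 ± 6.3 CPM (-0.04, edgeR adjusted p = 0.52). The feedback inhibitor Socs3 (1.03), the interferon-γ receptor chain Ifngr2 (0.62) and the ISG15 protease Usp18 (0.47) were higher.

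Among 14 tested partner factors and coregulators 6 were higher and 3 lower, with a median of 0.14 on the log2 scale. The shares were 42.9% higher and 21.4% lower, against 29.0% and 29.9% of all tested genes. The NF-κB subunit Relb (1.23) and Batf (0.88), which pairs with Irf4 and Irf8, were higher. Batf was scarce, at 0.804 ± 0.25 against 1.48 ± 0.30 CPM with at most 49 counts in a library. Its log2 fold change ranged from 0.49 to 1.06 over the alternatives. The acetyltransferase Kat2b (-0.91) and Tcf4 (-0.45) were lower. The corepressor genes named for Irf2 were all expressed. Irf2bp2 rose from 34.1 ± 0.57 to 49.4 ± 2.5 CPM (log2 fold change 0.54, SE 0.05, edgeR adjusted p = 1.4e-07), and Irf2bpl rose by 0.30 (SE 0.04, edgeR adjusted p = 1.1e-05). Irf2bp1 was lower, at 17.1 ± 0.73 and 14.7 ± 1.6 CPM (-0.22, edgeR adjusted p = 0.027), with groups that overlapped. Its call was lost in 7 of 17 alternatives, which included leaving out GFP replicate 1, GFP replicate 3, OEIRF7 replicate 1 or OEIRF7 replicate 2 (edgeR adjusted p of 0.063, 0.061, 0.091 and 0.083).

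Of 14 tested negative regulators of IRF protein or translation, 5 were higher and 5 lower, with a median log2 fold change of 0.01. An even split is also what all tested genes show (29.0% higher and 29.9% lower). Tnfaip3, the deubiquitinase A20 (0.70), and the deubiquitinase Cyld (0.25) were higher. Eif4ebp2, a repressor of translation that restrains synthesis of Irf7 protein, fell (121 ± 2.6 to 70.4 ± 2.5 CPM, log2 fold change -0.78, edgeR adjusted p = 2.6e-10), as did Tarbp2 (-0.41) and Rbck1 (-0.35).

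Interferon genes, the classical targets of Irf3 and Irf7, were near or at 0. Of 21 listed, 17 had no count in any library, Ifnb1 and the listed alpha genes other than Ifnab among them, and a count of 0 allows up to 3 counts, or 0.123 CPM, in the shallowest library, for counting error only. Ifnz, the only one past the low-count filter with at most 15 counts, did not pass (log2 fold change -0.10, edgeR adjusted p = 0.85). Interferon alpha genes share near-identical sequence, so their counts are uncertain.

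Of 30 tested genes driven by the ISGF3 complex, 13 were higher and 6 lower, with a median log2 fold change of 0.11. In shares that was 43.3% higher and 20% lower, against 29.0% and 29.9% of all tested genes. Oasl1, which binds viral RNA and restrains translation of Irf7 (2.22), Zbp1, a nucleic acid sensor (1.21), and Rsad2, the antiviral protein viperin (1.20), were higher by log2 fold change. Ifi27 (-0.42) and Ifit3 (-0.32) were lower, and reads of Ifit3 may be shared with its near copy Ifit3b. The call of Ifit3 was lost without GFP replicate 2, OEIRF7 replicate 1 or OEIRF7 replicate 4 (edgeR adjusted p of 0.070, 0.072 and 0.059). The number lower was 3 without GFP replicate 2, without OEIRF7 replicate 1 or without OEIRF7 replicate 4, and 3 with limma on FPKM.

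Of 23 tested genes known to be controlled by Irf1, 14 were higher and 4 lower, with a median log2 fold change of 0.28. These shares were 60.9% higher and 17.4% lower, against 29.0% and 29.9% of all tested genes. Among those with a mean CPM above 1, Ptgs2, the inducible cyclooxygenase, rose most (2.73, SE 0.24, edgeR adjusted p = 1.6e-07). Its libraries labelled OEIRF7 were uneven, at 1024 ± 455 CPM against 155 ± 35 in those labelled GFP. Cd274, which encodes PD-L1 (1.26), and the adhesion molecule Vcam1 (1.22) followed. Il15ra (-0.54) and Il15 (-0.45) were lower in edgeR. The call of Il15ra was lost in 11 of 17 alternatives, among them leaving out GFP replicate 1, 2 or 3 or OEIRF7 replicate 1 or 2 (edgeR adjusted p of 0.11, 0.071, 0.088, 0.075 and 0.14). With limma on FPKM the number lower fell to 2 with a pseudocount of 0.1 and to 1 without a filter, where Il15 did not pass either (adjusted p = 0.074).

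**Figure D4:**
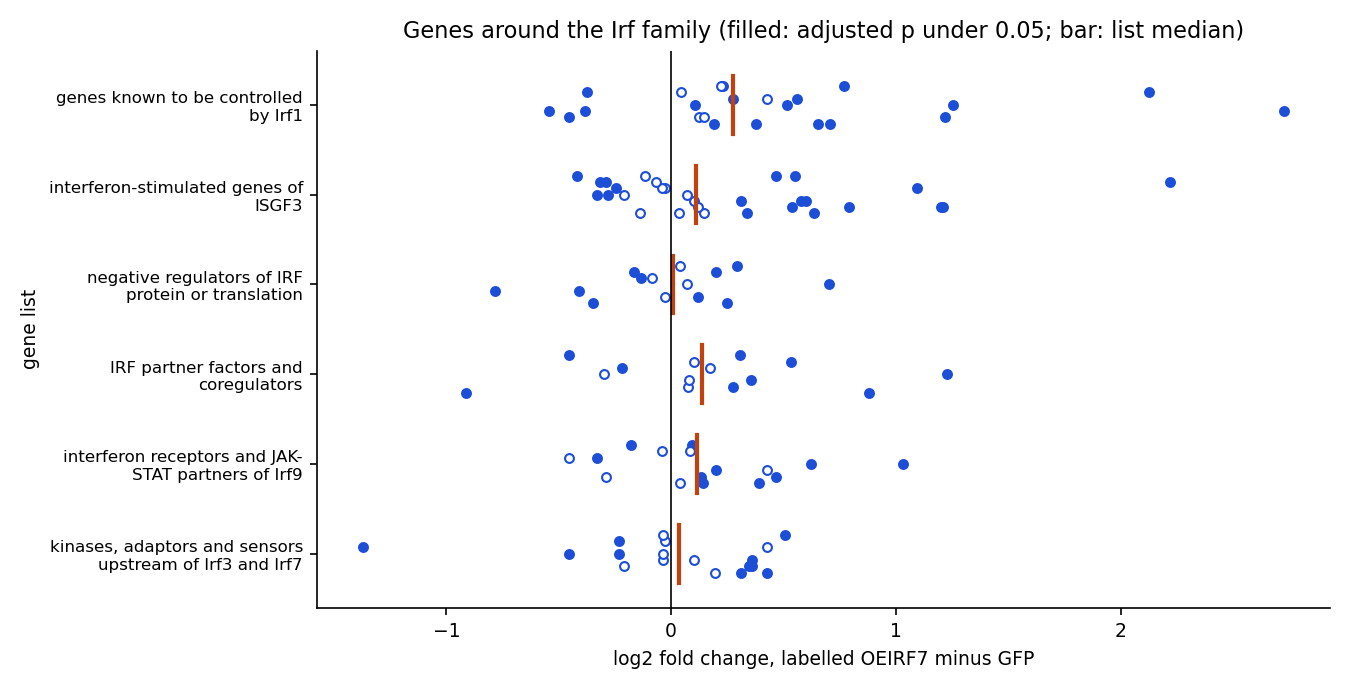
Log2 fold change (x axis, libraries labelled OEIRF7 minus GFP) of each tested gene in 6 lists around the Irf family (y axis), filled where the adjusted p is under 0.05, with a bar at the list median. Medians lie between 0.01 and 0.28, and every list holds called genes on both sides of 0.

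Within the libraries labelled GFP, Irf7 and the summed interferon-stimulated genes had the same order, and within those labelled OEIRF7 they did not. The summed CPM of the 30 tested genes was 2395, 3023, 2336 and 2675 in GFP replicates 1 to 4 and 2623, 2998, 2894 and 2614 in OEIRF7 replicates 1 to 4. The sums of the groups overlapped, although Irf7 did not. Among the libraries labelled GFP replicate 2 had the highest sum and the highest Irf7 and replicate 3 the lowest of both, whereas OEIRF7 replicate 2 had the highest sum of its group with the lowest Irf7 (14.5 CPM) and OEIRF7 replicate 4 the lowest sum with the highest Irf7 (16.4 CPM). As a description over 8 libraries, with no test, the deviations of log2 CPM from the group mean were correlated between Irf7 and these genes with a median Pearson r of 0.67 (28 of 30 positive), in which the libraries labelled GFP, with the wider spread of Irf7, weigh most. For Irf1 the median r was also 0.67 (28 of 30 positive), for Irf3 0.39, for Irf5 0.33, for Irf9 0.28, for Irf2 -0.26 and for Irf8 -0.57. The median with all tested genes was 0.02 for Irf7 and 0.00 for Irf1, and all these values share the same libraries and their scaling.

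**Figure D5:**
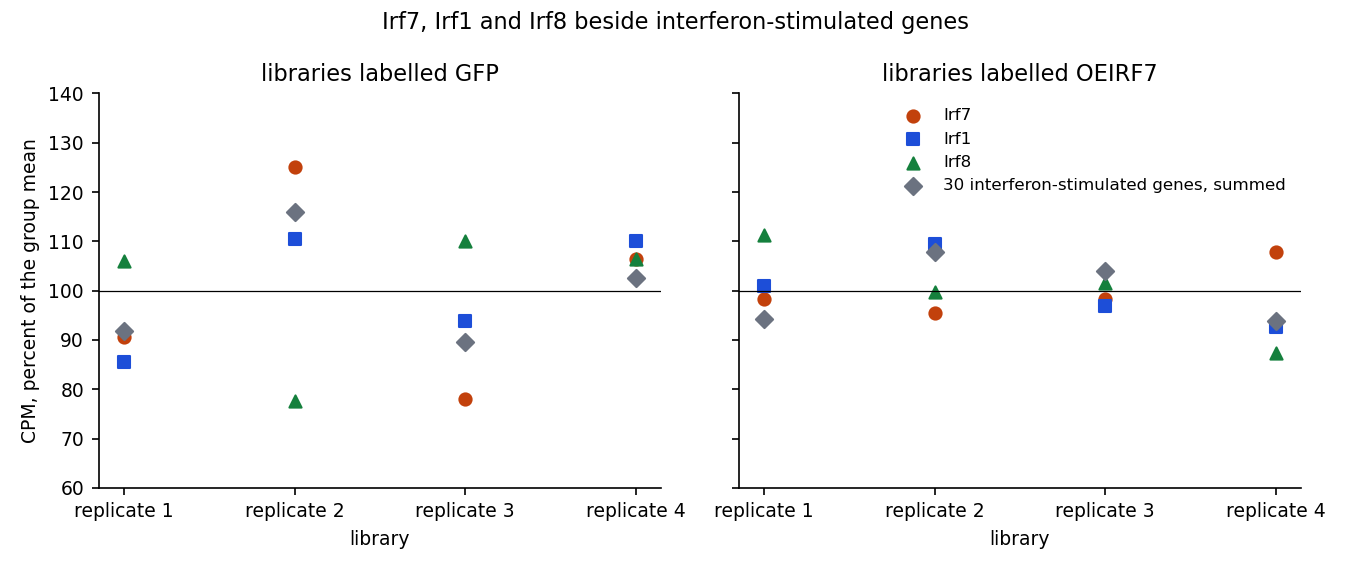
CPM as a percent of the group mean (y axis) in each library (x axis), for Irf7, Irf1, Irf8 and the sum of 30 interferon-stimulated genes, libraries labelled GFP left and OEIRF7 right. In the left panel Irf7, Irf1 and the sum are high in replicates 2 and 4, while Irf8 is lowest in replicate 2, at 3.08 CPM.

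Genes with a pattern most like that of a member over the 8 libraries were named by Pearson r of log2 CPM, which here mostly follows the difference between groups. For Irf7 these were Abca1, Serpinb9 and Zfp354c (r of 0.998 each), with log2 fold changes of -1.41, -1.17 and -0.45. For Irf1 they were Rgs5 (0.996), Gnpnat1 (0.992) and Cstf3 (0.988), for Irf2 Cep126, Hgs and Hmgxb3, for Irf3 Chmp5, Prepl and Arpin, and for Irf5 Swap70, Sypl and Pknox1. Irf8 was matched by Glce (0.944), Zfp462 and Cyfip1, and Irf9 by Ccdc43 (0.900), Ints12 and Tut4. By deviations from the group mean the closest genes were Bivm for Irf7 (0.965), Rgs5 for Irf1 (0.979), Hgs for Irf2 (0.985), Rcan2 for Irf3 (0.971), Cpne3 for Irf5 (0.975), Gimap6 for Irf8 (0.982) and Gbe1 for Irf9 (0.992). These are the highest r among all tested genes with a mean above 5 CPM, over only 8 libraries. Picking the highest of so many gives large values by itself, and shared control was not tested.

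Of the genes beside the members some were called and most were not. Phrf1, which overlaps Irf7 by 45 bases on the opposite strand, had 84.1 ± 2.7 and 79.2 ± 1.9 CPM (log2 fold change -0.09, edgeR adjusted p = 0.058), and Rassf7 on its other side had -0.28 (adjusted p = 0.11). Enpp6, right of Irf2, did not pass. Scaf1 and Prmt1 next to Irf3 did not pass (0.00 and 0.04), nor did Kcp next to Irf5, Cox4i1 and Foxf1 next to Irf8 or Psme2 next to Irf9. Exoc2, right of the untested Irf4, was lower (-0.24), and Dusp22 to its left did not pass. Il5, Gm12216, Tspan33, Cdhr5 and Rec8 had too few counts to be tested.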

How the data were processed

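RNA from primary murine cardiac fibroblasts was sequenced by the authors, who used Trimmomatic for trimming and HISAT2 for mapping to GRCm38. The deposited counts are their raw HTSeq-count values per gene. The deposited FPKM, from Cufflinks, are scaled for length and depth. Tool versions and the strand setting of counting are not given in the sources used here. The group means, fold changes and p-values that the authors deposited were not used. The labels and the paper differ on the kits and on the virus. The paper counts fewer replicates than the 4 libraries per group analysed here.

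Counts were tested in R 4.3.3 with edgeR 4.0.16 (filterByExpr, TMM, glmQLFTest, no covariates). P-values were adjusted over 13533 genes by Benjamini-Hochberg, and the prior count of log2 CPM was 2. DESeq2 1.42.0 and limma 3.58.1 on log2(FPKM + 1) or log2(FPKM + 0.1) were alternatives. FPKM served to compare levels between genes. On data simulated from these counts, edgeR, run on 13442 genes, recovered 182 of 200 changed 2-fold in this comparison and called 13 others. The simulation changed far fewer genes than were called in the real data, and each by 2-fold. It therefore does not speak for smaller changes such as that of Irf2. Replicates of a group differed by more than sampling noise (the ratio of chi-square to its degrees of freedom was 2.69 to 8.67).

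Of 22274 identifiers, 22219 were found in GENCODE M21, from which coordinates were taken, and 121 symbols altered in the table were restored by identifier. The members and gene lists were chosen with earlier results of these data known. Named list genes are the up to 3 largest rises and falls at an adjusted p under 0.05 and mean CPM above 1. All Irf genes, their neighbours and, for each tested member, the 3 genes most alike with mean CPM above 5 are also named by rule. Tbk1, Stat2, Ifnz and the cell markers given singly were chosen after their values were seen. A few genes that this rule names are not reported here.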

Additional observations from a re-analysis of the deposited data

Results flagged for a closer look

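GFP replicate 2 stood apart from the other 3 libraries of its group in 2 of the 18 sets of 4 libraries examined, where chance alone would mark about 1 in 20. Irf4 was at 0.441 CPM in this library, far above the others, on 11 counts against 1 or 2. Irf8 was at 3.08 CPM in it, below the others at 4.22 to 4.38 CPM. The same library had the highest Irf7 and Irf1 CPM of its group.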

How the results depend on the processing

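Over 17 alternatives the number of members past the threshold was 4 to 5, and Irf1, Irf3, Irf5 and Irf7 passed in the same direction in each. The log2 fold change of Irf7 ranged from -3.06 to -2.72. Irf2 was lost in 5 alternatives, with 0.17 by DESeq2 and 0.15 to 0.16 in 4 of the fits that left out 1 library, whose whole range was 0.15 to 0.19. Limma on FPKM kept the call, with 0.26 to 0.29, and gave -0.27 to -0.26 for Irf3. For Irf8, which never passed, leaving out 1 library gave -0.03 to 0.13, with -0.033 without GFP replicate 2. Scaling by library size alone gave 4346 higher and 3728 lower genes against 3924 and 4045. Same-numbered libraries correlated in their deviations from the group means by only 0.08, 0.10, 0.14 and 0.10, so the numbers were not taken as pairs, although each library correlated best with its own number, a hint from the data only. With a replicate block 8211 genes passed against 7969, and 5 members as before, and it changed no member's call. Genes of few counts, Irf4 above all, are limited by depth.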
